A study of Homo sapiens with 8 samples.

Results

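The genes TNFSF11, WNT4, ELF5, AREG and HBEGF encode paracrine mediators, or a regulator, of hormone action in the mammary gland. Their loci were taken as 5 windows on hg19, each holding the gene, with borders rounded to 1 kb, and 50 kb on either side. These windows span 0.637 Mb, or 0.021% of the listed genome, and held 17 of the 43784 sites obtained by merging the 5 lists of progesterone receptor (PR) sites. The lists came from chromatin immunoprecipitation and sequencing (ChIP-seq) in T47D-MTVL cells, a T47D human luminal breast cancer line with an integrated reporter driven by the mouse mammary tumour virus promoter. Cells of all groups had been kept in hormone-stripped serum and then without serum, and were untreated (0 min) or given 10 nM R5020, a synthetic progestin, for 5, 30, 60 or 360 min. H3K4me1, H3K4me3 and RNA polymerase II regions were listed for untreated cells only. Each of these 8 groups was a single library, so no difference between lists has a replicate check and no test was run. The lists hold coordinates without heights or read numbers, their depth is unknown, and absence from a list does not show that a region was unbound. The luminal label of the line was not checked here, because the lists name no genes.

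In the mammary epithelium PR is found in a part of the luminal cells, and progesterone acts on the PR-negative neighbours through secreted factors. TNFSF11 encodes RANKL, the ligand of RANK, and WNT4 a Wnt ligand; both are textbook mediators of progesterone-driven growth of the epithelium. ELF5 is an ETS-family transcription factor of the luminal progenitor and alveolar lineage. AREG (amphiregulin) and HBEGF (heparin-binding EGF-like growth factor) are ligands of the EGF receptor that are shed from the cell surface. PR binds palindromic elements of the letters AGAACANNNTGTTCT, and many of its sites in breast cancer cells lie far from gene starts. H3K4me1 marks enhancers and the surroundings of promoters, and H3K4me3 marks active promoters.

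The sequences upstream of the gene starts are shown so that the loci without a listed chromatin region, TNFSF11 and AREG, can be set beside WNT4, ELF5 and HBEGF, which had H3K4me3 in the gene body. Each line gives the 250 bases before a start, 5′ to 3′, from RefSeq on GRCh38.p14, with CpG dinucleotides in capitals. All 5 genes matched the RefSeq table, TNFSF11 with 2 starts, of which the first in the direction of transcription is printed.
TNFSF11 start 1: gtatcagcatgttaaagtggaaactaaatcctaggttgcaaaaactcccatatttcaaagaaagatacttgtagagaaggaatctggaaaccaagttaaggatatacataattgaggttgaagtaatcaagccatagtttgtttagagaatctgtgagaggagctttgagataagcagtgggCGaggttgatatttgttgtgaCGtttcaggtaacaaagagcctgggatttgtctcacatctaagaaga
AREG: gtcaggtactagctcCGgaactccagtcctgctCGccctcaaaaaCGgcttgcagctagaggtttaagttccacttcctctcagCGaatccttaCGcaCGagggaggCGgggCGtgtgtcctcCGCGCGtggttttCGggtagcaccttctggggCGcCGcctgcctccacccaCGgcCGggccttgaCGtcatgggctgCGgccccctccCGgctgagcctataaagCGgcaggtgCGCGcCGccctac
WNT4: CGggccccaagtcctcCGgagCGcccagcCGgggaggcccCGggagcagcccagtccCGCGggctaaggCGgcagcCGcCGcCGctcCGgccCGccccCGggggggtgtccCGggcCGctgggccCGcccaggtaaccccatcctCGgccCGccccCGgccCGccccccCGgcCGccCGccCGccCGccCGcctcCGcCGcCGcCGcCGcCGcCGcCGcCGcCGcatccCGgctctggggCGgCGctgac
ELF5: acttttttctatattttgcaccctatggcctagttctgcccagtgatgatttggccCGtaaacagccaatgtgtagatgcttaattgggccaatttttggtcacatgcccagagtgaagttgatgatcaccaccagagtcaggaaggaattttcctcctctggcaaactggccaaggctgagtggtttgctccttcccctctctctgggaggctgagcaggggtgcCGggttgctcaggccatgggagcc
HBEGF: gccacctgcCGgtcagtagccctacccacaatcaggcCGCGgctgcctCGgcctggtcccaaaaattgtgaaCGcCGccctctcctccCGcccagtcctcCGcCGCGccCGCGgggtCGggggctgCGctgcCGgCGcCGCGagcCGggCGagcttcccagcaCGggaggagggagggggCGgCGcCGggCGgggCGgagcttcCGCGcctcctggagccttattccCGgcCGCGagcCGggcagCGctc
The printed TNFSF11 and ELF5 stretches each held 2 CpGs, and the other TNFSF11 stretch, not printed, held 6. AREG held 23, HBEGF held 33 and WNT4 held 40, against a median of 11 over 35114 RefSeq promoters. At least as many CpGs as at WNT4 were found in 2.16% of those promoters. The number of CpGs did not order the loci by their listed chromatin, since ELF5 with 2 had H3K4me3 regions and AREG with 23 had none. The hexamer TGTTCT on either strand, the core ACANNNTGT (its own reverse complement, and contained in the full element) and the full element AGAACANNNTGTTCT were absent from all 6 stretches of the 5 genes. They occurred in 12.4%, 4.61% and 0.00285% of RefSeq promoter stretches of that length, so few matches would be found in 6 of them, and these letters say nothing of the PR sites themselves, whose hg19 sequence was not used here.

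The 5 loci differed in how many PR sites they held. No site was listed at 0 min in any window, where the whole list of 844 sites averages 0.177 sites over that length. With hormone the windows together held 8, 10, 10 and 11 sites at 5, 30, 60 and 360 min, against whole-list averages of 4.82, 5.43, 5.13 and 5.0 sites for the same length. TNFSF11 accounted for 3, 5, 5 and 6 of these, ELF5 for 3, 2, 3 and 2, HBEGF for 1, 2, 2 and 2, and AREG for 1, 1, 0 and 1. WNT4 had no site at any of the 5 times. The merged sites numbered 6 at TNFSF11, 4 at ELF5, 4 at HBEGF and 3 at AREG. To set these numbers against the genome, it was tiled end to end with pieces of each window's length. These tiles are not centred on genes and are a description only. Assembly gaps and other stretches that reads cannot reach were not removed, so tiles without a site or region are counted too often. Tiles with at least 1 PR site at 60 min made up 46.7% at the length of TNFSF11, 44.7% at that of ELF5, 43.4% at that of WNT4, 40.8% at that of HBEGF and 40.1% at that of AREG. For at least 1 merged site the shares were 63.2%, 61.3%, 59.9%, 57.2% and 56.2% in the same order. At least as many merged sites as in the window were found in 10.7% of tiles for TNFSF11, 18.9% for ELF5, 15.3% for HBEGF and 22.2% for AREG.

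**Figure D1:**
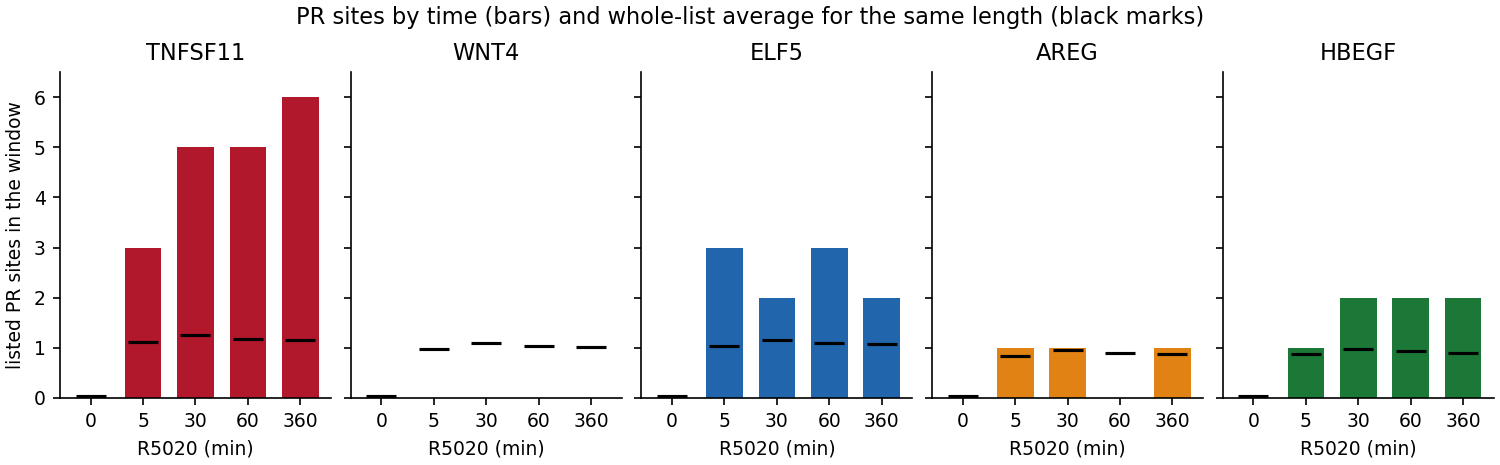
Number of listed PR sites (vertical axis) in each gene window by minutes of R5020 (horizontal axis), as bars, with the whole-list average for the same length as black marks. TNFSF11 (3 to 6 sites), ELF5 and HBEGF stand above their marks at each of the 4 times with hormone. AREG does so at all of these but 60 min, and WNT4 has no site at any time.

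TNFSF11 (RANKL) held the most merged sites within 50 kb of the gene, and they lay mainly before it. With 100 kb on either side ELF5 had more sites than TNFSF11 at 5, 30 and 60 min, with 11, 8 and 8 against 3, 6 and 5. On chromosome 13, 4 of its 6 merged sites were upstream of the gene body (43136000 to 43183000) and 2 were inside it. Numbered by position, site 1 was 30.7 kb upstream, site 2 was 24.1 kb, site 3 was 8.34 kb and site 4 was 7.85 kb upstream. Site 5 had its midpoint 1.0 kb inside the rounded gene start, and site 6 lay 30.1 kb into the gene. Only the site next to the rounded gene start and the late site in the gene therefore touched TNFSF11 itself. Because the gene border is rounded to 1 kb, the place of site 5 relative to the first start is known no more finely than that. These distances are from the border at the first start and not from the second, which lies further into the gene. On GRCh38.p14 the sequence stretch of the first start begins at 42562486 and that of the second at 42573902.

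The TNFSF11 sites were not all listed at the same times. Sites 1, 2 and 4 were listed at all 4 times with hormone. Sites 3 and 5 were missing from the 5 min list and present at 30, 60 and 360 min, and site 6 was in the 360 min list alone. Of all merged sites, 23.0% were listed at all 4 times with hormone, 10.6% at 30, 60 and 360 min only, and 10.1% at 360 min alone. The sites listed at 5 min were the distant ones and 1 of the close pair at about 8 kb, whereas the site at the first start was listed from 30 min on. At 60 min these sites were chr13:43104974-43105231, chr13:43111614-43111856, chr13:43127265-43127627, chr13:43127899-43128123 and chr13:43136841-43137145. The 360 min site in the gene was chr13:43165956-43166153, 197 bp wide.

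The widths of the TNFSF11 sites give the only measure of extent in the lists. Site 1 was 202, 258, 257 and 287 bp wide at 5, 30, 60 and 360 min, and site 2 was 210, 235, 242 and 283 bp. Site 4 was 220, 252, 224 and 250 bp wide. Site 3, the widest of the locus, measured 403, 362 and 351 bp in the 30, 60 and 360 min lists. Site 5 was 283, 304 and 315 bp wide at those times. At 360 min all sites but site 4 and site 6 were wider than the list's median of 265 bp, and at 5 min sites 1, 2 and 4 were narrower than its median of 269 bp. Their midpoints moved by at most 34.0 bp between the lists that held them. Sites were matched between lists by overlap, so small shifts follow in part from the matching.

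Unstimulated cells had no H3K4me1, H3K4me3 or RNA polymerase II region anywhere in the TNFSF11 window. The nearest H3K4me1 region was 136.0 kb upstream of the gene body, the nearest H3K4me3 region 289.0 kb upstream and the nearest RNA polymerase II region 415.0 kb downstream. Such empty stretches made up 32.0% of 20637 tiles of 147 kb, a share that includes assembly gaps. Of these 6613 empty tiles, 19.4% had at least 1 PR site at 60 min and 28 (0.423%) had at least 5, the number at TNFSF11. Of the 14024 tiles with a chromatin region, 9.2% had at least 5, and of all 20637 tiles 6.39% did. Read the other way, 2.12% of the 1318 tiles with at least 5 sites had no chromatin region. The number 5 was taken from the locus itself after its sites were counted, so these shares place the locus and do not test it.

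**Figure D2:**
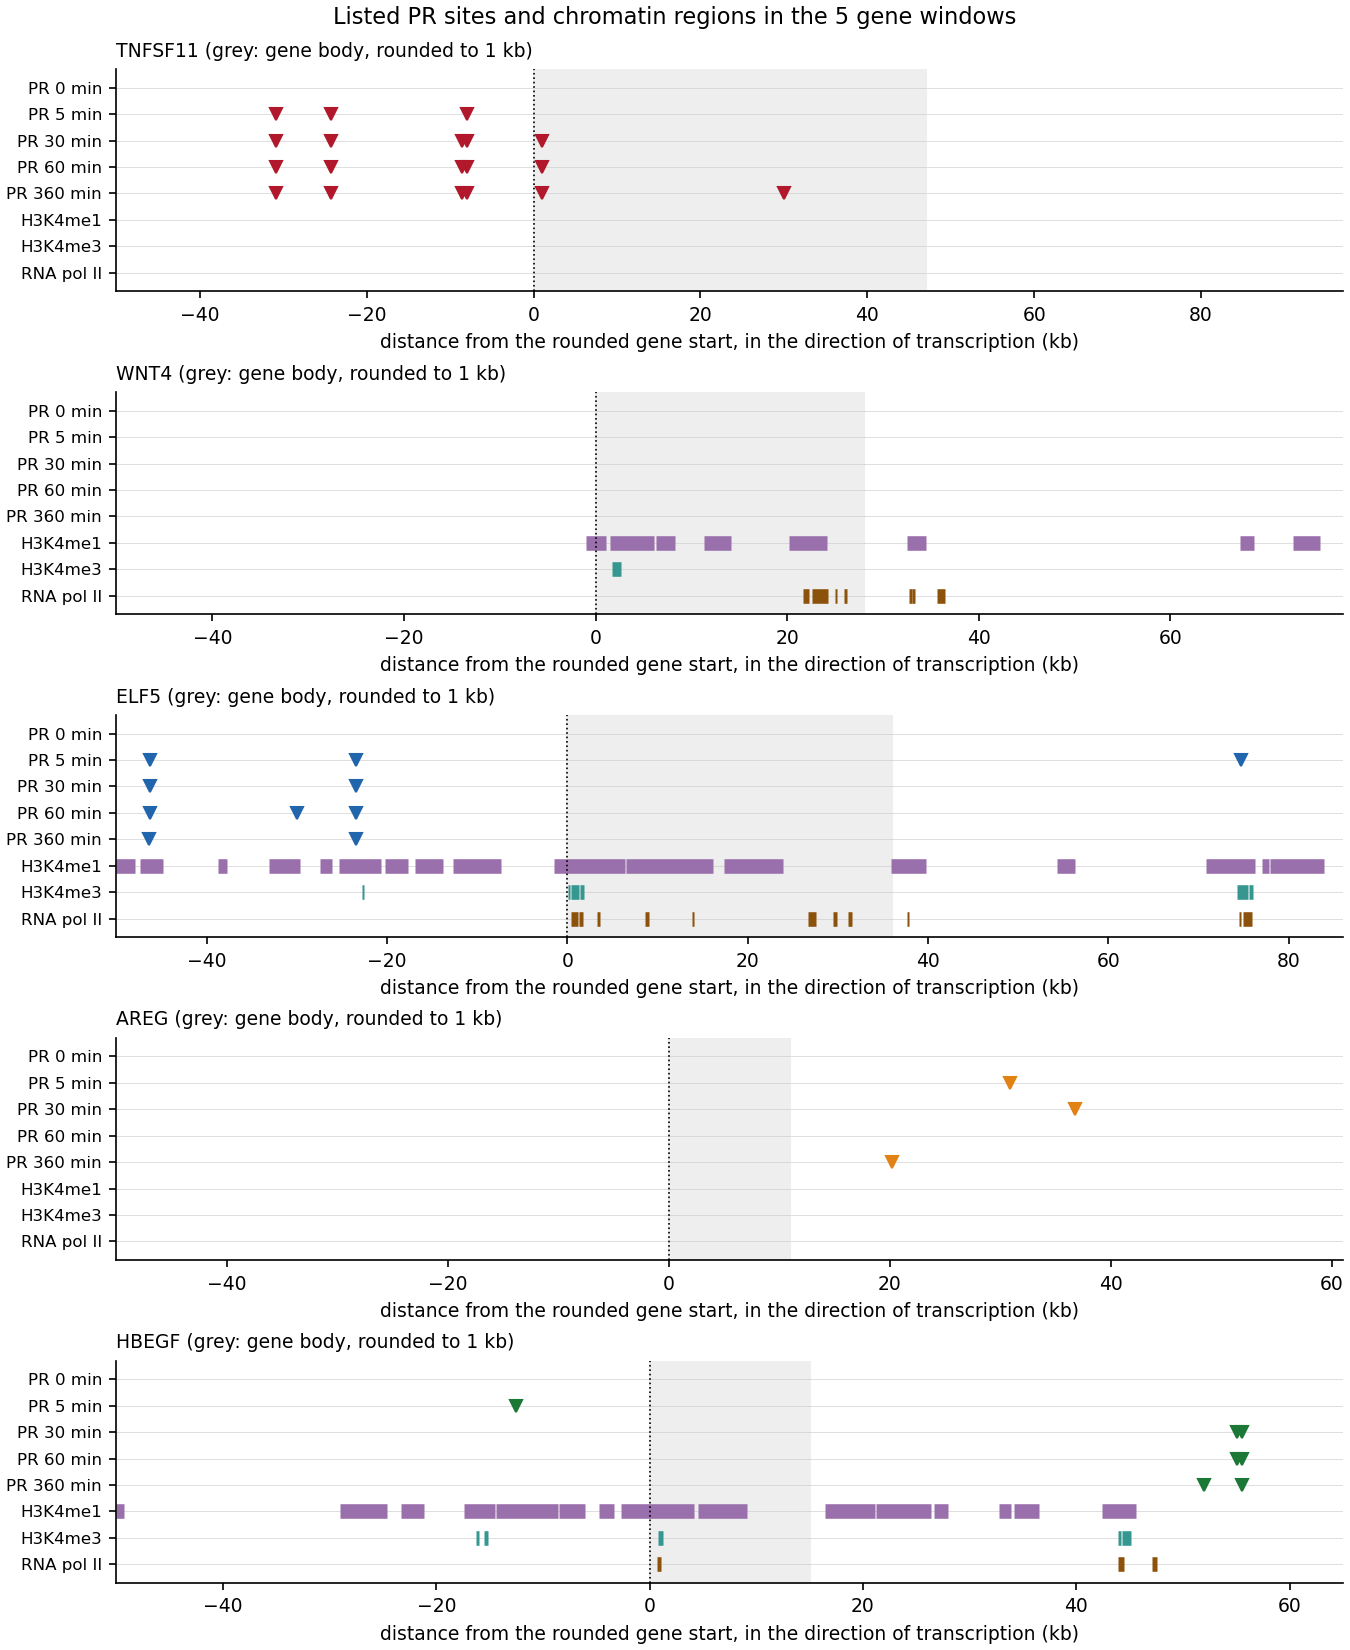
Each panel is a gene window, with distance from the rounded gene start in kb on the horizontal axis, in the direction of transcription. Triangles are midpoints of PR sites at each time, bars are chromatin regions of unstimulated cells to scale, and grey is the gene body. PR sites stand without chromatin bars at TNFSF11 and AREG, chromatin bars stand without PR sites at WNT4, and both occur at ELF5 and HBEGF.

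WNT4 was the reverse case, with chromatin marks and no PR site. Its window on chromosome 1 held 8 H3K4me1 regions covering 17.0% of its length, 1 H3K4me3 region and 7 RNA polymerase II regions. The H3K4me3 region, chr1:22468306-22469270, lay 1.73 to 2.69 kb inside the rounded start, and the widest H3K4me1 region, chr1:22464913-22469457, spanned it. The next widest H3K4me1 regions were chr1:22446823-22450790 and chr1:22456819-22459673, also in the gene. All 7 RNA polymerase II regions were toward the other end of the gene or beyond it: 4 lay in the body, between 21.6 and 26.2 kb from the start, and 3 were 4.74 to 7.64 kb past its end. The widest of them was chr1:22446737-22448407, with 1670 bp, and it overlapped an H3K4me1 region. The other 3 in the gene were chr1:22444790-22445065, chr1:22445827-22446017 and chr1:22448762-22449361. The 3 past the end were chr1:22434556-22435360, chr1:22437627-22437949 and chr1:22437984-22438262. No RNA polymerase II region was listed at the H3K4me3 end of WNT4.

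Among 961 tiles of 128 kb with at least as many regions of each kind as WNT4, 6.76% had no PR site at any time, against 40.1% of all 23700 tiles, assembly gaps included. At 60 min the shares without a site were 16.8% and 56.6%. The thresholds again came from the locus. The PR site nearest to WNT4 was outside the window, 74.6 kb downstream of the body, toward CDC42, its neighbour in RefSeq. It was listed at all 4 times with hormone, at widths of 302, 328, 388 and 348 bp, and overlapped an H3K4me1 region. At 60 min it was chr1:22368024-22368412. On the upstream side the first site was 86.0 kb from the gene, at chr1:22556985-22557232, and was listed at 60 min alone.

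ELF5 had both many chromatin regions and PR sites, but its PR sites were all outside the gene body. The window on chromosome 11 held 17 H3K4me1 regions that covered 50.3% of it, 6 H3K4me3 regions and 11 RNA polymerase II regions. Tiles of its length with at least 17 H3K4me1 regions made up 2.56% of the genome, and 55.2% of those 572 tiles had at least 3 PR sites at 60 min, as ELF5 did. The widest H3K4me1 regions were chr11:34519887-34529525, with 9638 bp, and chr11:34529570-34537441, with 7871 bp, which spans the rounded start. The third was chr11:34512062-34518621. All 3 overlap the ELF5 gene.

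The start of ELF5 carried 3 H3K4me3 regions, chr11:34534194-34534610, chr11:34534681-34535587 and chr11:34535757-34535967, all within 1.81 kb of the rounded border. Of its RNA polymerase II regions, chr11:34534319-34534707 and chr11:34534808-34535595 lay at that start. A further 6 lay along the body, from chr11:34532384-34532665 near the start to chr11:34504489-34504911 at 31.1 to 31.5 kb from it. The 4 between these were chr11:34526921-34527394, chr11:34521970-34522204, chr11:34508422-34509271 and chr11:34506058-34506547, and 1 region, chr11:34498116-34498391, was 1.61 kb past the gene's end. RNA polymerase II was thus listed at both the start and the end of ELF5 in unstimulated cells.

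The remaining H3K4me3 regions of the ELF5 window were away from the gene. Toward CAT (catalase), the RefSeq neighbour on the downstream side, were chr11:34460002-34460360 and chr11:34460472-34461771, together with the RNA polymerase II regions chr11:34460060-34461110 and chr11:34461251-34461541. The last was a narrow upstream region of 221 bp, chr11:34558545-34558766.

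Each of the 4 merged PR sites of the ELF5 window overlapped an H3K4me1 region, as did 42.1% of all merged sites. Such regions covered 50.3% of this window, so overlap by position alone would be frequent. ELF5 site 2, 23.3 kb upstream, and site 4, 46.1 kb upstream, were listed at all 4 times with hormone. Site 2 was 218, 232, 316 and 221 bp wide at 5, 30, 60 and 360 min, and at 60 min (chr11:34559255-34559571) it lay 489 bp from the narrow upstream H3K4me3 region. Site 4 was 282, 262, 278 and 226 bp wide, and at 60 min it was chr11:34582128-34582406. Site 3, chr11:34565872-34566099, was 29.9 kb upstream and listed at 60 min alone. Site 1, chr11:34461184-34461382, was listed at 5 min alone, at the CAT end of the window, 38.6 kb past the ELF5 body. It was the only one of the 17 merged sites that overlapped H3K4me3 or RNA polymerase II regions. Beyond the window PR sites were denser: with 100 kb on either side, ELF5 had 11, 8, 8 and 6 sites at 5, 30, 60 and 360 min.

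AREG had neither lasting PR sites nor listed chromatin. Its window on chromosome 4 held 3 sites, each listed once and all downstream of the gene: chr4:75340708-75341114 at 5 min, 406 bp wide, chr4:75346570-75346889 at 30 min, 319 bp wide, and chr4:75330061-75330254 at 360 min, 193 bp wide. They were 19.7, 25.6 and 9.06 kb past the gene body. The site at 360 min was among the narrow ones, since 90.1% of that list was at least as wide, whereas 13.7% of the 5 min list was at least as wide as the site at 5 min. No chromatin region was listed in the window, and the nearest H3K4me1 region was 228.0 kb upstream. Among 10150 tiles of 111 kb without chromatin regions, assembly gaps included, 30.8% had at least 1 merged PR site and 4.72% had at least 3.

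The closest lasting PR site to AREG was 68.1 kb upstream, outside the window and toward EREG, its RefSeq neighbour, which encodes the EGF receptor ligand epiregulin. It was listed at all 4 times with hormone, at widths of 351, 289, 227 and 276 bp, and at 60 min was chr4:75241652-75241879. It also overlapped no chromatin region of any of the 3 lists. hg19 holds a second, nearly identical copy of this gene, AREGB, which RefSeq now lists as a synonym of AREG. The sources used here do not say how reads that match both copies were placed, so an empty list over the gene itself is uncertain.

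HBEGF had H3K4me1 over much of its window. Of its 4 merged PR sites 1 was in an H3K4me1 region, where 42.1% of all merged sites were. The others lay close together, 36.9 to 40.4 kb downstream, and so stand for little more than a single place. The window on chromosome 5 held 15 H3K4me1 regions covering 42.7% of it, 5 H3K4me3 regions and 3 RNA polymerase II regions. The H3K4me3 region chr5:139725763-139726237 and the RNA polymerase II region chr5:139725984-139726302 lay at the HBEGF start, within 1.24 kb of the rounded border, inside the widest H3K4me1 region, chr5:139722850-139729670. The next widest H3K4me1 regions were chr5:139735596-139741372 and chr5:139700670-139705790. Toward PFDN1 (a prefoldin subunit), the RefSeq neighbour downstream, were the H3K4me3 regions chr5:139681831-139682712 and chr5:139682780-139683066 and the RNA polymerase II regions chr5:139682481-139683105 and chr5:139679477-139679921. Upstream, toward SLC4A9 (an anion exchanger), were chr5:139742194-139742503 and chr5:139742987-139743281, both H3K4me3.

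The PR sites of the HBEGF window lay in different places in the 5 min list and in the later ones. At 5 min the single site was chr5:139739461-139739654, 193 bp wide and 12.5 kb upstream, inside the H3K4me1 region chr5:139735596-139741372. It was listed at 5 min alone, as were 16.8% of all merged sites. From 30 min on, sites were listed 36.9 to 40.4 kb downstream, where no chromatin region was listed within 4.33 kb. HBEGF site 1 was 334, 386 and 226 bp wide at 30, 60 and 360 min, and site 2 was 228 and 280 bp at 30 and 60 min. At 60 min they were chr5:139671243-139671629 and chr5:139671810-139672090, 181 bp apart. Site 3, chr5:139674918-139675143, was listed at 360 min alone, when site 2 was not. At 60 min, tiles of this length with at least 15 H3K4me1 regions had at least 2 PR sites in 63.5% of 620 cases.

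Over the 5 loci together, the pattern of times was near that of all PR sites. Of the 17 merged sites, 5 were listed at all 4 times with hormone (29.4%, exact 95% interval for counting error 10.3 to 56.0%), where 23.0% of all merged sites were. At 1 time alone 8 were listed (47.1%, 23.0 to 72.2%), against 43.2% of all. The sites at all 4 times were 3 of 6 at TNFSF11 and 2 of 4 at ELF5, with none at AREG and HBEGF. Of the 10 sites at 60 min, 5, 9 and 8 were also in the 5, 30 and 360 min lists, and over the whole list these shares were 53.7%, 77.6% and 70.6%. The median width of the 60 min sites was 279 bp (224 to 386 bp), against 313 bp for the whole list.

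By chromatin the PR sites differed between loci, as did the H3K4me1 coverage of the windows. Of the 17 merged sites 5 overlapped H3K4me1 regions (29.4%, 10.3 to 56.0%), against 42.1% of all merged sites, and 1 overlapped H3K4me3 and RNA polymerase II regions, against 4.1% and 6.99% of all. At 60 min, 3 of 10 overlapped H3K4me1 (30.0%, 6.67 to 65.2%), against 48.2% of the list. None of the 10 overlapped H3K4me3 or RNA polymerase II, where the list had 5.12% and 8.92%, and 10 sites allow a share of up to 30.8%. These intervals hold the shares of the whole list. By locus, all 4 ELF5 sites and 1 of 4 HBEGF sites were in H3K4me1 regions, which covered 50.3% and 42.7% of those windows. None of the 6 at TNFSF11 or the 3 at AREG were, but those windows held no H3K4me1 region, so no site there could overlap one. Seen from the chromatin, 5 of the 40 H3K4me1 regions in the windows held a PR site at some time (12.5%, 4.19 to 26.8%), against 18.2% of all. Of the 12 H3K4me3 regions 1 did, against 7.92% of all, and of the 21 RNA polymerase II regions 1 did, against 9.69%. None of the 11 H3K4me1, 5 H3K4me3 and 13 RNA polymerase II regions that overlapped the gene bodies held one.

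**Figure D3:**
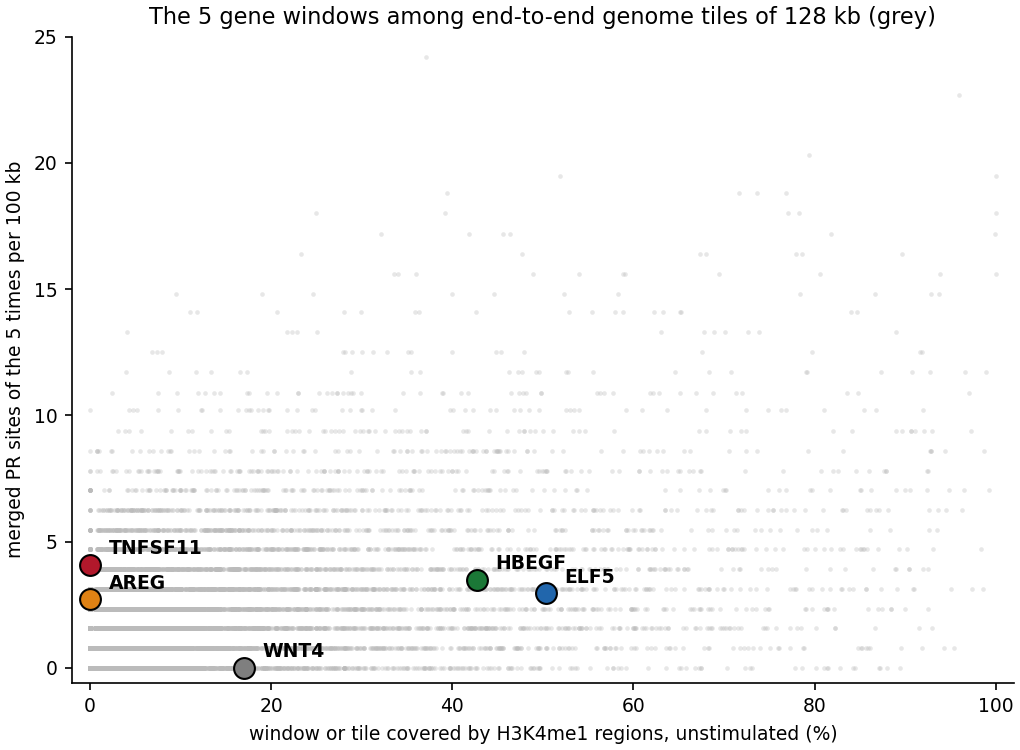
Share of a window or tile covered by H3K4me1 regions of unstimulated cells (horizontal axis, %) against merged PR sites per 100 kb (vertical axis), for end-to-end tiles of 128 kb (grey) and the 5 gene windows (coloured). TNFSF11 and AREG lie at 0% covered, WNT4 at 17.0% without a PR site, and HBEGF and ELF5 at 42.7% and 50.3%.

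The authors also deposited normalized numbers of reads at each 60 min PR site after digestion with micrococcal nuclease (MNase), which spares DNA in nucleosomes, in unstimulated and R5020-treated cells. Only TNFSF11, ELF5 and HBEGF have 60 min sites and so have values. In the authors' deposited table the 5 TNFSF11 sites had 46, 29, 132, 37 and 73 reads in unstimulated cells and 37, 24, 58, 35 and 66 with R5020. Each of the 5 was lower with R5020, as were 78.0% of all sites, and site 3 had the largest difference. Dividing unstimulated by R5020 reads, the authors' deposited table gave ratios of 1.24, 1.21, 2.28, 1.06 and 1.11. Their median of 1.21 was below the 1.29 of all 24433 sites with a ratio and above the 1.19 of the other 557 sites of chromosome 13. None of the 5 had a listed histone mark, and their median was also above the 1.14 of the 12437 sites with neither H3K4me1 nor H3K4me3.

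TNFSF11 site 3 had the largest ratio of the 10 sites and no listed histone mark. Among the 12437 sites with neither mark in the authors' deposited table, 1.92% had a ratio of at least 2.28, and over all sites 8.34% did. Site 4 lies 272 bp away from it and had a ratio of 1.06 in the authors' deposited table. From the authors' deposited table, sites 3 and 4 had 36.5 and 16.5 unstimulated reads per 100 bp of site, and 16.0 and 15.6 with R5020. The pair thus differed without hormone and was close with it, in values that carry no error. Site 2 had the lowest read density, 12.0 per 100 bp unstimulated in the authors' deposited table, a value that 3.25% of all sites did not exceed.

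At ELF5 the authors' deposited table gave 125, 94 and 111 reads in unstimulated cells at sites 2, 3 and 4, and 81, 97 and 98 with R5020. The ratios in the authors' deposited table were 1.54, 0.97 and 1.13, so that the largest belonged to site 2, listed at all 4 times, and the lowest to site 3, listed at 60 min alone. Their median, 1.13, was below the 1.47 of the 10756 sites marked with H3K4me1 alone in the authors' deposited table. Unstimulated density was similar at the 3 sites, at 39.6, 41.4 and 39.9 reads per 100 bp, above the 30.3 of all sites in the authors' deposited table.

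At HBEGF the order of the conditions was the opposite. Sites 1 and 2 had 92 and 55 reads in unstimulated cells and 125 and 71 with R5020 in the authors' deposited table, with ratios of 0.74 and 0.77. Of all sites in the authors' deposited table, 4.88% had a ratio of 0.74 or less and 6.06% one of 0.77 or less, and among sites with neither mark 7.91% and 9.71% did. The 2 sites are 181 bp apart, and TNFSF11 sites 3 and 4 are 272 bp apart, so that the values within each pair may not be independent. The other 1662 sites of chromosome 5 had a median ratio of 1.24 in the authors' deposited table.

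Values were also listed where the first PR site outside a window, on either side, was in the 60 min list. The site 74.6 kb downstream of WNT4 had 111 reads unstimulated and 80 with R5020 in the authors' deposited table (ratio 1.39), and the one 86.0 kb upstream had 52 and 23 (ratio 2.26). The site 68.1 kb upstream of AREG had 46 and 34 in the authors' deposited table (ratio 1.35). The AREG site on the other side, 373.0 kb downstream, had 42 and 33 (ratio 1.27), and the first site outside the HBEGF window, 72.6 kb downstream of the gene, had 184 and 164 (ratio 1.12), again in the authors' deposited table. At each of these sites the R5020 value was the lower one, as at 78.0% of all sites.

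Of the 10 sites of the 3 loci, 7 had more reads unstimulated than with R5020 in the authors' deposited table (70.0%, 34.8 to 93.3%), where 78.0% of all sites did. A ratio above 1.5 was found at 2 (20.0%, 2.52 to 55.6%), TNFSF11 site 3 and ELF5 site 2, against 33.5%, and a ratio below 1 at 3 (30.0%, 6.67 to 65.2%), against 20.9%. The median ratio of the 10 sites, 1.12, was lower than the 1.29 of all sites in the authors' deposited table. The 7 sites with neither histone mark had a median of 1.11, against 1.14 for the 12437 such sites of the authors' deposited table. The 3 marked with H3K4me1 alone had 1.13, against 1.47 for the 10756 such sites there. The interval of each of the 3 shares above holds the share of all sites. These intervals treat the 10 sites as independent, and 2 of the 3 ratios below 1 are the close pair at HBEGF. Their normalization is not stated, so ratios are read by their order among sites and not by their distance from 1. With a single value per condition no error can be set on a site's pair of reads, such as the 37 and 35 of TNFSF11 site 4.

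**Figure D4:**
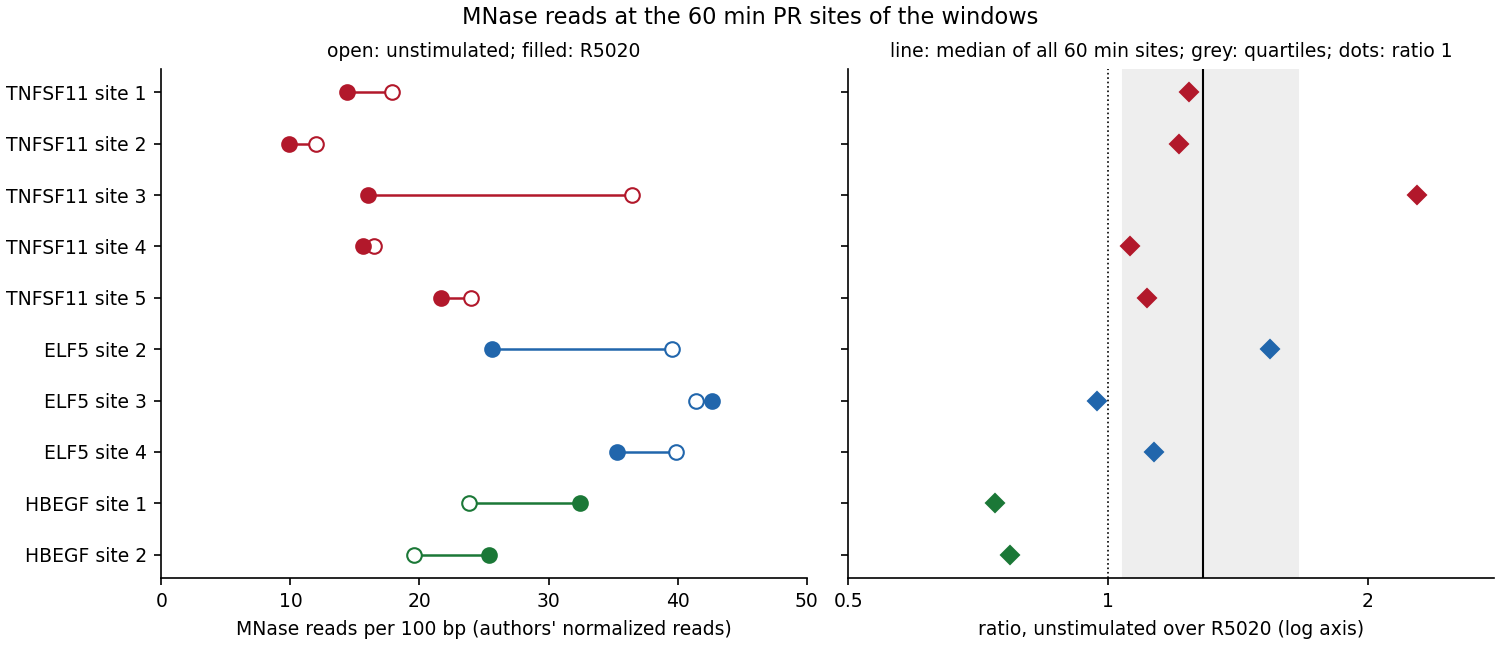
The 10 60 min PR sites of the TNFSF11, ELF5 and HBEGF windows: MNase reads per 100 bp in unstimulated (open) and R5020-treated cells (filled) at left, and their ratio on a log axis at right, with the median (line) and quartiles (grey) of all 60 min sites. TNFSF11 site 3 is highest at 2.28 and the HBEGF sites are lowest at 0.74 and 0.77.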

How the data were processed

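ChIP-seq sites of 8 samples, 1 per group, were analysed as regions on hg19, the build the submitters' processing notes name. The sources used here do not give aligner, peak caller, thresholds, input or depth. Per the file headers, the authors' deposited table of 60 min sites holds normalized MNase read numbers, treated as a score because they are whole numbers with an unstated normalization, and the authors' ratio (unstimulated over R5020), which equals the quotient of those numbers within 0.005. MNase libraries were not analysed here. All 24436 table sites match the 60 min list, and 3 have no ratio.

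Windows were the gene, rounded to 1 kb, with 50 kb on each side. Overlap meant 1 bp or more, and overlapping PR sites of the 5 lists were merged. Tiles covered each chromosome to its last listed base, 3035 Mb in all. Assembly gaps were not removed from the tiles or from the length behind the whole-list averages, which lowers those averages. Coordinates are printed as listed. The 5 genes, lists and descriptions were chosen with earlier results of these data known. Every merged PR site, every H3K4me3 and RNA polymerase II region and the 3 widest H3K4me1 regions of a window are named. RefSeq (GRCh38.p14) gave promoter sequences, strand and neighbours only; pathway genes beyond the 5 were not analysed here for want of an hg19 annotation. Alternatives changed the flanks, the overlap, the merging, the widths kept and the MNase filter. Shares carry exact (Clopper-Pearson) 95% intervals over sites of 1 library, for counting error only. The overlap counting was tested on simulated data. Python 3.11.15, NumPy 2.4.6, SciPy 1.17.1 and Matplotlib 3.10.9 were used.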

Additional observations from a re-analysis of the deposited data

How the results depend on the processing

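Counts of sites followed the window and the widths kept. With 25 kb on each side the 5 windows held 5, 5, 5 and 7 PR sites at 5, 30, 60 and 360 min, 9 merged sites and 3 at all 4 times with hormone, and with 100 kb 18, 21, 19 and 19, 33 and 10. With 100 kb the windows held 80 H3K4me1 and 19 H3K4me3 regions. From the wider 50% of each list there were 2, 3, 3 and 4 PR sites, 9 merged sites and 0 at all 4 times, and from the wider 50% of chromatin regions 4 H3K4me3 and 8 RNA polymerase II regions. The single merged site in H3K4me3 and RNA polymerase II regions was outside the 25 kb windows (0.0% for each), and with the wider 50% of regions the RNA polymerase II share was 0.0%. The windows held no site at 0 min under any of these settings, and WNT4 none with hormone except with 100 kb, at 1, 1, 2 and 1 sites. The H3K4me1 share of 60 min sites was 20.0% with 25 kb and 47.4% with 100 kb, beside the 48.2% of the whole list. These shares all lie inside the interval of the 30.0% found with 50 kb (6.67 to 65.2%), so a lower share in the windows was not shown. With 100 kb the 60 min sites of all windows rose from 10 to 19, and those of ELF5 from 3 to 8. The median MNase ratio of the 10 sites, 0.868 times that of all sites, stayed between 0.835 and 0.938 over its 5 alternatives, none of which matched sites by histone mark. By locus it changed side: TNFSF11, at 0.938, was at 1.27 with only sites of at least 50 unstimulated reads and at 1.02 against its own chromosome, and ELF5, at 0.876, was at 1.19 with 25 kb, where it has 1 site, and 1.03 with 100 kb; the cause was not tested. HBEGF has no 60 min site, and so no value, with 25 kb. Without depth, heights or replicates, how far counts vary from library to library is unknown.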
